A study of Mus musculus with 6 samples.

Results

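The 48 cell cycle genes described here were 48 of the 31053 genes in each count matrix. They were found by gene symbol, and all 48 were present. The list holds 20 S members, which act in DNA replication, 26 G2/M members, which act in G2 phase and mitosis, and Stmn1 and Tubb4b, a tubulin regulator and a tubulin, which were put in neither phase.

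A cell that divides copies its DNA in S phase and separates the copies in mitosis. S genes load and run the MCM helicase, supply nucleotides and build the replication fork, and many of them are transcribed by E2F factors once retinoblastoma proteins are released by cyclin-dependent kinases. G2/M genes build the spindle, condense chromosomes and run the checkpoint and the protein degradation that ends mitosis, and many are controlled through the cell cycle homology region (CHR) and CCAAT boxes of their promoters. T and NK cells divide when stimulated, while many mature macrophages and dendritic cells divide little.

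The data are single-cell transcriptomes of material labelled as the mouse melanoma line YUMM2.1, in an Empty vector (EV) and a Bmal1 WT (WT) library. Bmal1 is the circadian clock transcription factor encoded by Arntl, and the study compared cells by their Bmal1 status. Per the study's methods, YUMM2.1 comes from a transgenic melanoma with mutant Braf, 1 lost copy of Cdkn2a and a stabilized beta-catenin, among other changes, all of which EV and WT share, and Empty vector or Bmal1 was introduced with lentivirus into YUMM2.1 or into a Bmal1-null clone of it. The labels do not say which of these hosts was used, or whether cells were cultured or taken from tumours, and immune cells made up most of both libraries. The labels give neither age nor sex. Each library pooled 3 hashtagged replicates (EV h1, h7 and h8, WT h3, h5 and h9) in 1 capture channel, so p-values measure only the spread between hashtags, and group and channel cannot be told apart.

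The EV library held 4147 barcodes, of which 3978 were kept (median 5094 UMIs, unique transcript counts), and the WT library held 2785, of which 2386 were kept (median 7570.5 UMIs). Exactly 1 hashtag was found on 3222 EV and 1621 WT cells, and only those entered replicates. Cells were assigned to classes by marker genes, none of which is a member (melanoma-like 131 EV and 360 WT cells, T 1011 and 348, NK 1087 and 413, dendritic 377 and 222). Each class had the highest summed level of its own markers, which the gate fixes in advance and which is no check of it. Of the 491 melanoma-like cells, 123 lay in a cluster that its genes left unnamed, and only 53 EV and 111 WT melanoma-like cells had 1 hashtag. EV h7 held 5 of them, with 68950 UMIs in all. Arntl did not mark the WT label: it stood at 65.9 CPM (UMIs of a gene scaled to all UMIs of the class, with a 95% Poisson interval of 58.9 to 73.4) in EV and 61.2 (57.2 to 65.3) in WT melanoma-like cells. No source used here says whether reads from the lentiviral copy are counted, so Arntl does not check the labels.

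Promoter letters are shown first, because E2F and CHR sites are elements through which many S and G2/M genes are known to be controlled. No measured value enters the matching, but the genes printed were picked with their measured levels known. RefSeq promoter windows (GRCm38.p6) were matched by symbol for 41 of 48 members. The 250 bases before each start were searched on both strands for an E2F site (tttcgcgc, tttggcgc or tttcccgc), a CHR (tttgaa or ttcgaa) and a CCAAT box (ccaat), where matches on opposite strands could overlap. An E2F site stood before 5 of 17 S members (29.4%), 2 of 23 G2/M members (8.70%) and 1.78% of all 27025 genes. A CHR stood before 4 of 17 S members (23.5%), 10 of 23 G2/M members (43.5%) and 19.6% of all genes. CCAAT boxes stood before 11 of 17 S members (64.7%), 20 of 23 G2/M members (87.0%) and 37.5% of all genes. These matches are letters in a window and do not show binding.

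The E2F letters are shown in capitals for 4 S members whose levels differed widely between classes or groups. They are Uhrf1, which guides maintenance of DNA methylation at the fork (chr17:56304117-56304146, plus strand), and 3 helicase subunits, Mcm7 (chr5:138172030-138172059, minus strand), Mcm5 (chr8:75109345-75109374, plus strand) and Mcm6 (chr1:128359734-128359763, minus strand). Each window is 30 bases, written 5′ to 3′ on the gene's strand. In Mcm7 the capitals are the match on the other strand. Rrm1 and Rrm2, the members called in T cells below, had no E2F site in their windows.
Uhrf1: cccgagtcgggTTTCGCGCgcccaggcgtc
Mcm7: aatttcgaaccGCGGGAAAcagggtgtcca
Mcm5: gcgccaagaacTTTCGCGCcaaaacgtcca
Mcm6: gattggacgggTTTGGCGCgaagtagctca

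The CHR letters are shown in capitals for 4 G2/M members that have a CHR and are described below. They are Mki67, the proliferation marker Ki-67 (chr7:135716460-135716489, minus strand), cyclin B2, Ccnb2 (chr9:70421704-70421733, minus strand), topoisomerase II alpha, Top2a (chr11:99024195-99024224, minus strand), and the mitotic kinase Cdk1 (chr10:69352913-69352942, minus strand). In Top2a the capitals are the match on the other strand. Of the 7 members called in NK cells below, Mki67 and Ccnb2 had a CHR. Hmmr, Kif23, Cenpf and Ccnb1 had none in their windows, and no window was matched for Tpx2. Top2a and Cdk1 were called in no class in the main edgeR test.
Mki67: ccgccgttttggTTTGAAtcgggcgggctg
Ccnb2: cagggactagaaTTTGAAaataagactgta
Top2a: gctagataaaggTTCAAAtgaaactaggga
Cdk1: ctttaccgcggcgagTTTGAAactgctggc

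At 2000 UMIs per cell, cells with several members detected were most frequent among T cells. A cell was called cycling when at least 3 distinct of the 46 S and G2/M members were detected after thinning to 2000 UMIs, and shallower cells were left out. The call counts transcripts and is not a measurement of division. Over all cells of a class, the cycling share in T cells was 24.1% in EV (210 of 870 cells, exact 95% binomial interval 21.3 to 27.1) and 32.2% in WT (109 of 338, 27.3 to 37.5). In NK cells it was 17.0% (14.7 to 19.5) and 22.6% (18.5 to 27.0), and in melanoma-like cells 17.7% (11.2 to 26) and 20% (15.7 to 24.8). Dendritic cells stood at 11.3% (8.20 to 15.1) and 21.2% (15.6 to 27.7). Macrophages or monocytes, at median depths of 7253 and 9782 UMIs, had the lowest shares of these classes, 1.90% and 5.11%. The intervals cover counting error only. Without thinning, the shares of the T, NK, dendritic and melanoma-like cells ran from 48.0% to 68.1%, and T cells did not lead. Over replicates, melanoma-like minus T cells was then 22.7 points and T minus dendritic cells −4.33 points. With thinning to 1000 UMIs, melanoma-like minus T cells was 4.63 points.

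Stmn1, the microtubule regulator stathmin, was not used for the call and separated called cells from the others in every class. At 2000 UMIs per cell it was detected in 35.2% of called and 2.88% of other T cells in EV, and in 46.8% and 4.80% in WT. In dendritic cells the shares were 45% of called against 1.27% of other cells in EV, and 45% against 1.34% in WT. In NK cells they were 26.4% against 3.89% in EV and 33.0% against 3.97% in WT, and in melanoma-like cells 45% against 4.30% and 63.5% against 9.92%. The beta-tubulin Tubb4b separated them unevenly. It was detected in 11.4% of called and 10% of other EV T cells, 26.6% and 8.73% in WT, and in NK cells in 11.7% and 13.7% in EV and 22.7% and 11.9% in WT. In melanoma-like cells the shares were 45% and 16.1% in EV and 46.03% and 16.3% in WT, and in dendritic cells 7.5% and 5.41% in EV and 12.5% and 4.70% in WT. Called cells were deeper before thinning in 7 of 8 class and library pairs (T, 7354 against 4540 median UMIs in EV and 12189 against 5506 in WT), and melanoma-like WT cells were the exception (18007 against 31339.5). Cells of the highest 5% of Scrublet scores made up 23.8% of called against 9.13% of other WT melanoma-like cells and 10% against 3.503% of EV dendritic cells. The part of depth or doublets in the calls was not tested.

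Within each replicate, T cells had a higher cycling share than NK cells. The difference was 9.05 percentage points ± 8.56 (SD, n = 6 replicates), positive in 6 of 6, with an exact sign-flip permutation p = 0.03125, the smallest that 6 replicates allow, and 0.1875 after Benjamini-Hochberg adjustment over the 6 pairs of classes. T minus dendritic cells was 10.2 points ± 11.7, positive in 5 of 6 (exact permutation p = 0.09375, adjusted 0.28125). Melanoma-like minus T cells was −9.48 points ± 13 (exact permutation p = 0.15625, adjusted 0.3125). The order of melanoma-like cells rested on thinning: without it they were 22.7 points above T and 28.5 above NK cells, and at 4000 UMIs per cell they differed by −30.04 points from T and by −18.2 from NK cells. Melanoma-like cells had the greatest depth of the 4 classes, with medians of 13808 UMIs in EV and 21544 in WT.

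**Figure D1:**
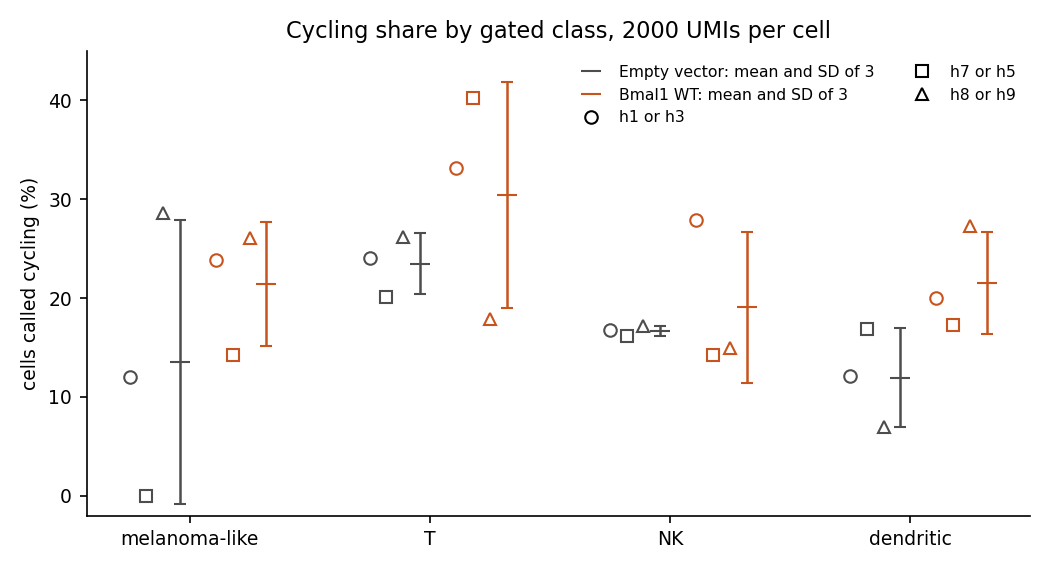
Cells called cycling (%, at 2000 UMIs per cell) in each hashtag replicate of 4 gated classes. Points are replicates, and bars show the mean and SD of 3. A shape names a hashtag (circle h1 or h3, square h7 or h5, triangle h8 or h9) and pairs nothing across groups. EV and WT overlap in melanoma-like, T and NK cells, while the 3 dendritic WT replicates, from 17.3 to 27.3%, lie above the 3 EV replicates, from 6.93 to 16.9%.

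At 2000 UMIs per cell, the EV and WT cycling shares overlapped in 3 of the 4 classes, and which class separated depended on the thinning. In dendritic cells they were 12.1% in h1, 16.9% in h7 and 6.93% in h8 for EV, and 20% in h3, 17.3% in h5 and 27.3% in h9 for WT. Every WT replicate was above every EV replicate, by 9.57 points on average (11.96% ± 4.96 against 21.5% ± 5.15, SD, n = 3 each). An exact permutation test gave p = 0.1, which is the limit of 3 against 3, and 0.4 after adjustment over the 4 classes. Without thinning, dendritic cells stood at 57.0, 63.7 and 64.2% in EV and 61.8, 61.3 and 65.8% in WT, so that the groups overlapped and the difference was 1.31 points (exact permutation p = 0.8). In T cells the EV replicates stood at 24.1, 20.1 and 26.2% and the WT replicates at 33.1, 40.2 and 17.9%. WT h3 and h5 were above the EV range and WT h9 below it, and the mean difference of 6.96 points had an exact permutation p of 0.4. Without thinning, the T cell groups did not overlap, at 50.8, 48.7 and 52.6% in EV and 70.1, 67 and 58.6% in WT (difference 14.5 points, exact permutation p = 0.1), while WT T cells were also the deeper (6423 against 4328 median UMIs). In NK cells the EV replicates lay within 16.2 to 17.2% and the WT replicates at 27.9, 14.3 and 15%, so that 1 replicate, h3, stood above the rest (difference 2.35 points, exact permutation p = 1). Without h3 the NK difference was −2.07 points. In melanoma-like cells EV was at 12, 0 and 28.6% and WT at 23.8, 14.3 and 26.1% (difference 7.87 points, exact permutation p = 0.6), and the 0 rested on 3 cells. Tests of a difference between classes in this contrast gave exact permutation p-values of 0.4 to 1, where 0.1 is the smallest possible.

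The S and G2/M members were not detected in the same proportion in each class. With at least 2 distinct members of a phase as the call, 28.6% of EV and 34.9% of WT T cells had an S call, and 15.4% and 21.6% had a G2/M call. In NK cells S calls stood at 25.7% and 26.2% and G2/M calls at 7.30% and 13.1%. In dendritic cells they were 17.2% and 22.2% for S and 5.08% and 15.3% for G2/M. In melanoma-like cells S and G2/M calls were 18.6% and 16.8% in EV and 17.5% and 18.1% in WT. Cells with both calls made up 9.66% of EV and 16.6% of WT T cells, and 3.11% and 9.52% of dendritic cells. The lists hold 20 and 26 genes of unlike abundance, so a phase share is compared between classes and groups and not with the other phase.

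**Figure D2:**
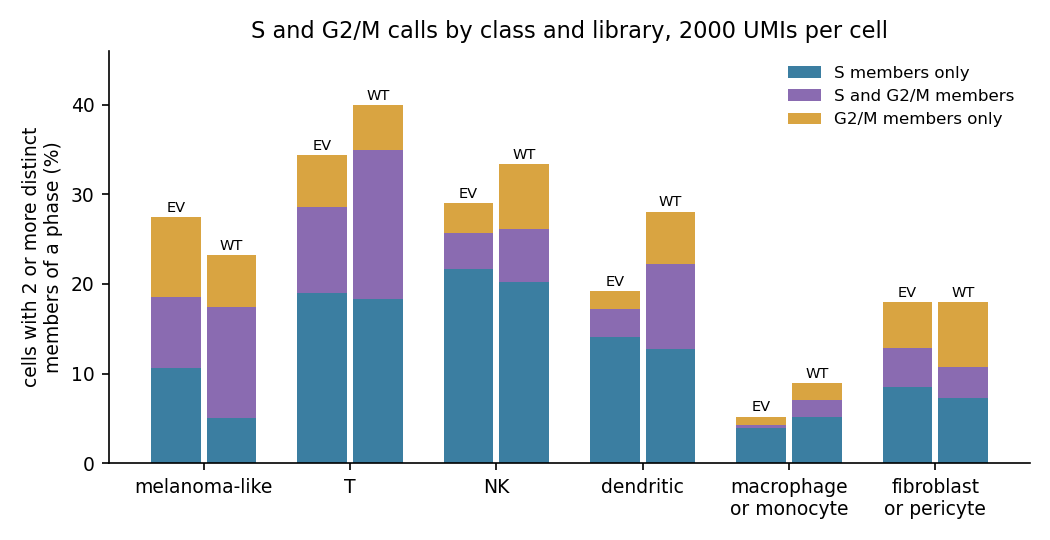
Share of cells (%) with at least 2 distinct S members only, of both phases, or of G2/M members only, by class and library at 2000 UMIs per cell. Bars are stacked shares of all cells of a library and carry no replicate error. The band of cells with both calls is wider in WT than in EV for T and dendritic cells, and macrophages or monocytes have the shortest bars.

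The balance of summed S to summed G2/M UMIs (log2 ratio) did not overlap between groups in NK cells. It was 1.12 in h1, 0.47 in h7 and 0.56 in h8 for EV, and −0.19 in h3, −0.73 in h5 and −0.90 in h9 for WT. The difference was −1.32 (0.72 ± 0.35 against −0.61 ± 0.37, SD, n = 3 each), an exact permutation p of 0.1, the smallest possible, and 0.4 adjusted over the 4 classes. The differences were −0.60 in dendritic cells (exact permutation p = 0.3), −0.30 in T cells (p = 0.5) and 0.05 in melanoma-like cells (p = 0.9). With classes taken from clusters made without the members, the NK difference was −0.22 (exact permutation p = 0.4) and the dendritic difference −0.75 (p = 0.1). There, 50 gated NK cells and 70 gated T cells fell in 1 cluster that was named T and led by Hist1h2ap, Gzmc and Nusap1.

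Within T cells the share was highest in cells with Foxp3, the regulatory T cell factor. It was 37.5% in EV (26.9 to 49.0) and 53.3% in WT (37.9 to 68.3). Cd8 T cells stood at 26.9% (22.6 to 31.7) and 34.5% (27.4 to 42.1), and Cd4 T cells at 18.4% and 23.1%. T cells without Foxp3 in which Cd8 and Cd4 UMIs were absent or tied were at 19.2% and 19.3%. By replicate, Foxp3 cells were at 52, 33.3 and 35.5% in EV and 52, 77.8 and 40% in WT, on 9 to 31 cells each, so the groups overlapped. Foxp3 cells made up 8.41% of EV and 12.9% of WT T cells. A split chosen after the values were seen set apart Cd8 T cells with the activation and exhaustion receptors Pdcd1 or Lag3, which were at 34.5% in EV and 35.2% in WT, from Cd8 T cells without them, at 16.6% (11.2 to 23.2) and 33.3% (21.95 to 46.3).

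Among dendritic cells the cycling share was highest in those with Xcr1 or Clec9a, markers of the cross-presenting cDC1 type, at 28.6% in EV (14.6 to 46.3) and 46.4% in WT (33.0 to 60.3). By replicate they were at 26.1, 100 and 25% in EV, with 2 cells in h7, and at 47.8, 60 and 35.3% in WT, so the groups overlapped. Cells with Ccl22 or Ccl17, chemokines of mature dendritic cells, stood at 11.1% and 11.7%, and those with Siglech, a plasmacytoid marker, at 4.88% and 11.1% (2 of 41 and 1 of 9 cells). Cells with Cd209a had 1 called cell of 34 in EV and 0 of 5 in WT, which allows a share of up to 60% by the limit of 3 counts and 52.2% by the exact binomial interval. Cells with Xcr1 or Clec9a made up 10.3% of EV and 28.4% of WT dendritic cells. By replicate they made up 18.8, 2.20 and 7.55% in EV and 27.5, 16.1 and 47.4% in WT. The cycling share of the Ccl22 or Ccl17 cells, the most numerous subset, overlapped between groups by replicate. It was 11.8, 17.6 and 4.35% in EV h1, h7 and h8 and 10.3, 8.82 and 25% in WT h3, h5 and h9. The part of the makeup in the dendritic difference was not tested.

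**Figure D3:**
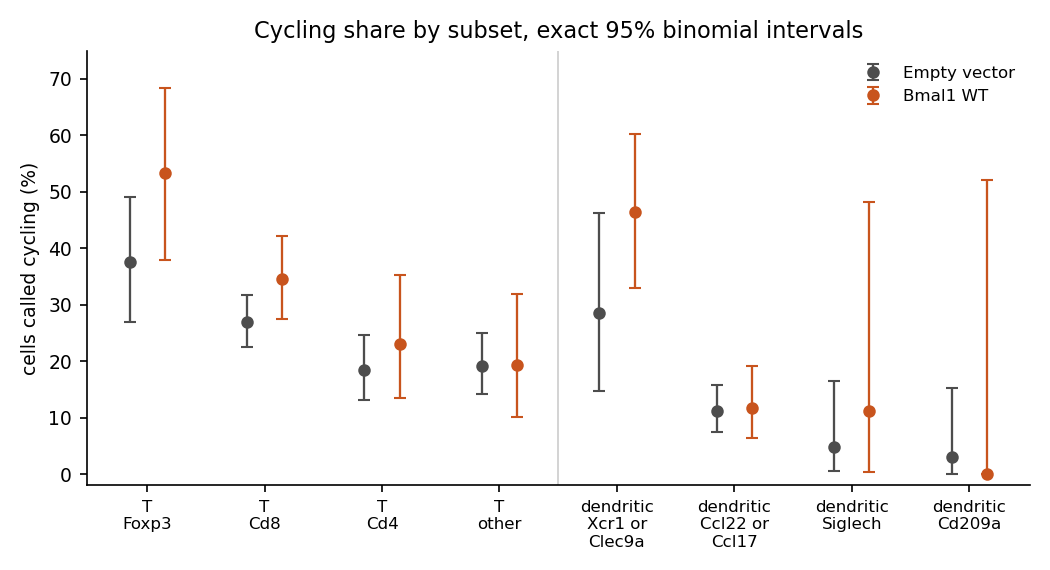
Cells called cycling (%) in subsets of T and dendritic cells, by library. Points are shares over all cells of a subset and bars are exact 95% binomial intervals, which leave out the spread between replicates. Foxp3 T cells and dendritic cells with Xcr1 or Clec9a stand highest in both libraries, and the interval of the 5 WT cells with Cd209a reaches 52.2%.

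NK cells were also split by Gzmc, a granzyme of activated killer cells, after the values had been seen. Cells with Gzmc had cycling shares of 27.5% in EV and 40.8% in WT, and cells without it 16.2% and 18.5%. Gzmc cells made up 6.44% of EV and 17.4% of WT NK cells. Their median depth was 8330 UMIs in EV and 10861 in WT, against 4186 and 5639 in cells without Gzmc.

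Most members had their highest level in T cells. With EV and WT cells pooled, all 20 S members, 23 of 26 G2/M members and Stmn1 were highest in T cells among the 4 classes. The pools differ in makeup, since WT gave 348 of 1359 T cells and 360 of 491 melanoma-like cells. Cdk1, the spindle factor Tpx2, the cytokinesis scaffold Anln and Tubb4b were highest in melanoma-like cells. The lowest class was dendritic for 25 members, melanoma-like for 18 and NK for 5. The levels below are CPM, and each gene is compared only with itself across classes.

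The S members set melanoma-like cells apart. Mcm6 stood at 181 CPM in T cells, 177 in NK cells and 21.1 in melanoma-like cells. Mcm5 was at 104 in T, 61.2 in NK and 16.6 in melanoma-like cells, and Pcna, the sliding clamp of the fork, at 161, 129 and 63.2. The licensing factors Cdt1 (68.6 in T and 15.7 in melanoma-like cells) and Cdc6 (17.5 and 4.20) showed the same order, and 17 S members were lowest in melanoma-like cells. The S exceptions were Cdc45, lowest in NK cells at 8.27, and Rrm1 and Ccne2, lowest in dendritic cells at 55.0 and 3.95. Melanoma-like cells also gave the greatest number of UMIs per cell of the 4 classes, so a level in CPM is not a level per cell.

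The G2/M members were mostly lowest in dendritic cells. Mki67 stood at 195 in T, 90.1 in NK and 42.3 in dendritic cells, and Top2a at 299, 154 and 80.8. Cenpf, a kinetochore protein, was at 66.8 in T, 59.4 in melanoma-like and 11.97 in dendritic cells. Anln had the largest excess in melanoma-like cells, at 87.6 against 17.2 in T cells and 6.04 in dendritic cells. Cdk1 (71.9 against 51.5 in T cells) and Tpx2 (65.2 against 56.6) differed less. These pooled levels are descriptions, with no test across classes.

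In T cells 2 genes of nucleotide supply rose in WT, and the other members had higher fitted levels without passing the test. Both encode subunits of ribonucleotide reductase, which makes deoxynucleotides. Rrm2 (chr12:24708241-24714146) stood at 51.0, 35.7 and 62.4 CPM in EV h1, h7 and h8 and at 117, 159 and 115 in WT h3, h5 and h9. Rrm1 (chr7:102441695-102469771) stood at 102, 90.6 and 110 in EV and at 171, 216 and 177 in WT. For both genes the WT replicates lay above all EV replicates. The log2 fold changes were 1.36 (SE 0.21) for Rrm2 and 0.89 (SE 0.14) for Rrm1, each with an edgeR adjusted p of 0.0351. All 48 members reached the count minimum in T cells, and 2 of 48 were called against 0.19% of all genes tested. Without EV h1 or h7, or without any 1 of the WT replicates, 0 members were called, and hardly any gene was. Of all genes tested, 1 of 6980 was called without EV h1 and 2 of 7571 without EV h7. Without WT h3, h5 and h9 in turn, 0 of 7467, 0 of 7603 and 0 of 7722 were. In these fits 30 to 38 members had an unadjusted p under 0.05 in edgeR. No share of all genes was taken there, so these counts cannot be read as a result about the members. In the main fit 20.2% of all genes had such a p, in either direction. Without EV h8, 25 of the 46 members tested were called, against 180 of all 7188 genes tested. DESeq2 called 18 of 48 members (2.4% of all genes), TMM scaling 9 (1.1%) and the fit with no minimum count 35 (4.16%).

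All 48 members had a higher fitted level in WT T cells, with a median log2 fold change of 0.94 where the median of all genes tested was −0.09. At an unadjusted edgeR p under 0.05, 39 of 48 were higher, against 8.23% of all genes, and the replicates did not overlap for 30 of 48, against 10.1%. The median was 0.84 for S and 1.04 for G2/M members. The members are measured in the same cells and are not independent of each other. In summed UMIs, more cycling cells and more transcript per cycling cell cannot be told apart.

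By role, the 4 genes of nucleotide supply had a median of 1.05 in T cells, with 4 of 4 at an unadjusted p under 0.05. For origin licensing and the helicase the median was 0.72, with 8 of 10 at that level. Mcm3, a helicase subunit, was at 83.1, 78.7 and 99.3 CPM in EV and 157, 175 and 120 in WT (log2 0.80, SE 0.16, edgeR adjusted p = 0.0608). Its partner Mcm7 was at 54.8, 57.7 and 75.3 against 111, 147 and 101 (0.94, SE 0.18, adjusted p = 0.0608 in edgeR). Pclaf, a PCNA-binding factor, stood at 170, 103 and 210 in EV and 335, 504 and 326 in WT (1.25, SE 0.23, edgeR adjusted p = 0.0608). These 3 genes did not overlap between groups and did not pass the adjusted threshold. Mcm5, Mcm6, Pcna and the G1/S cyclins Ccne1 and Ccne2 overlapped, and in each WT h9 stood within or below the range of the EV replicates (Mcm6, 135 in h9 against 153 to 179 in EV; Ccne2, 10.1 against 15.7 to 23.8).

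Among the G2/M members in T cells, the group of cyclins, Cdk1 and the anaphase-promoting complex had a median of 1.16, with 5 of 6 at an unadjusted p under 0.05. Cyclin A2, Ccna2, stood at 39.3, 32.0 and 73.5 in EV and 83.6, 113 and 167 in WT. Cdk1 was at 28.3, 21.1 and 54.1 against 74.1, 80.1 and 84.3, and its log2 fold change was 1.15 (SE 0.27, edgeR adjusted p = 0.0713). In each of these genes, EV h8 was the highest EV replicate and still below the lowest WT replicate. Of the mitotic kinases and checkpoint genes 6 of 6 reached that level, among them Aurkb, the kinase of the chromosomal passenger complex (21.2, 13.7 and 29.1 against 42.1, 61.5 and 57.3), and Plk1 (12.5, 3.66 and 28.6 against 37.4, 30.3 and 45.5). For centromere and chromosome genes, Mki67 was at 117, 105 and 180 in EV and 253, 297 and 435 in WT (1.26, SE 0.22, edgeR adjusted p = 0.0565), Top2a at 167, 170 and 301 against 378, 483 and 541, and the condensin subunit Ncapd2 at 42.7, 44.9 and 55.4 against 77.4, 105 and 96.1. Stmn1 (189, 193 and 286 against 322, 439 and 356) and Tubb4b (82.0, 59.5 and 117 against 153, 118 and 199) were higher as well, with edgeR adjusted p = 0.0713 and 0.105. NK markers in T cells were lower in WT, with 106 to 148 summed CPM and 6 or 7 of 7 detected, than in EV, with 163 to 262 and 6 or 7 of 7, and their part in these differences was not tested.

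**Figure D4:**
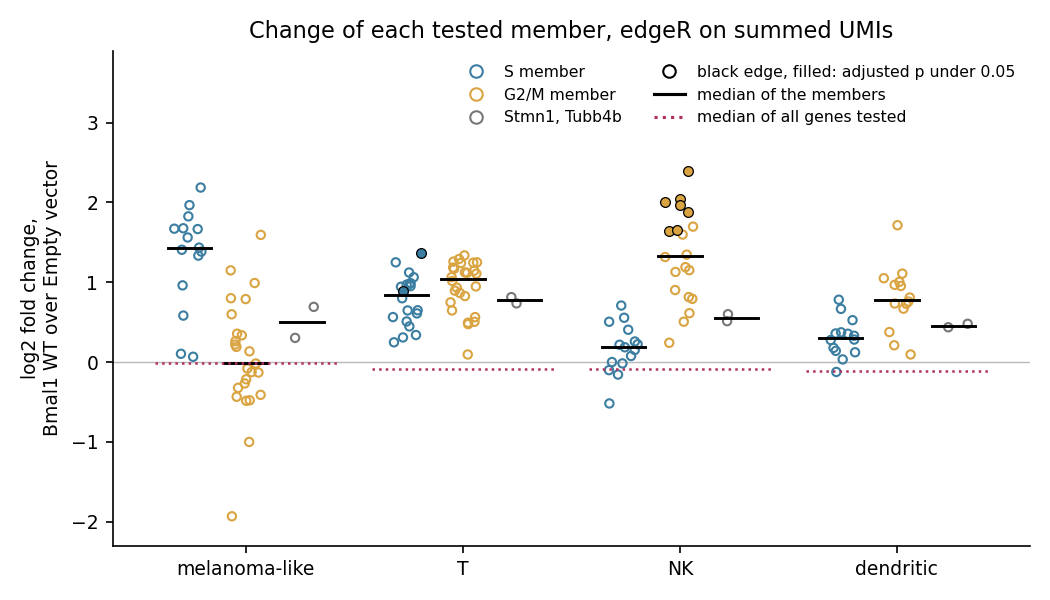
Fitted log2 fold change of WT over EV for each member that reached 100 UMIs, by class and phase, from edgeR on UMIs summed per replicate. Filled points with a black edge passed an adjusted p of 0.05, black lines are medians of the members and dotted lines the median of all genes tested. Both phases lie above 0 in T cells, G2/M members stand higher than S members in NK cells, and in melanoma-like cells S members stand higher than G2/M members.

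In NK cells, 7 G2/M members rose in WT, while no S member rose. The 7 were Tpx2, Kif23 and Hmmr of the spindle and cytokinesis, the centromere and chromosome genes Cenpf and Mki67, and the B-type cyclins Ccnb1 and Ccnb2. They were 7 of the 37 members that reached the count minimum, against 0.288% of all genes tested. Tpx2, which activates the kinase Aurora A on spindles (chr2:152847964-152895321), stood at 10.6, 15.01 and 8.40 CPM in EV and 54.4, 35.3 and 34.3 in WT. Its log2 fold change was 1.97 (SE 0.29, edgeR adjusted p = 0.0134). Kif23, a kinesin of the central spindle (chr9:61915905-61946774), was at 12.4, 14.4 and 12.6 in EV and 41.7, 35.3 and 46.6 in WT (1.64, SE 0.25, edgeR adjusted p = 0.0134). The hyaluronan-mediated motility receptor Hmmr, a spindle protein (chr11:40701395-40733422), was at 4.12, 13.8 and 4.73 against 40.2, 46.6 and 29.4 (2.40, SE 0.37, edgeR adjusted p = 0.0134). In all 3 genes the lowest WT replicate was over the highest EV replicate.

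The other called NK members had the same separation. Cenpf was at 7.65, 21.02 and 18.9 in EV and 62.6, 38.6 and 101 in WT (log2 2.005, SE 0.33, edgeR adjusted p = 0.0191). Mki67 was at 25.3, 75.7 and 47.3 against 216, 116 and 101 (1.65, SE 0.31, adjusted p = 0.0416 in edgeR). The cyclins drive entry into mitosis with Cdk1: Ccnb2 was at 8.24, 18.0 and 7.35 against 52.9, 22.5 and 39.2 (1.88, SE 0.36, adjusted p = 0.0416 in edgeR), and Ccnb1 at 1.77, 7.81 and 7.35 against 22.4, 27.3 and 22.1 (2.04, SE 0.40, adjusted p = 0.0458 in edgeR). Ccnb1 had 100 UMIs in all, at the count minimum. Cenpe, Birc5, Ube2c, Bub1b and Racgap1 were also separate in all replicates but had edgeR adjusted p-values from 0.061 to 0.335. Cdk1 itself overlapped (10.6, 30.03 and 14.7 against 47.8, 6.43 and 27.0).

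Of the G2/M members that reached the minimum in NK cells, 20 of 20 had a higher fitted level in WT, with a median log2 fold change of 1.33, and 16 were higher at an unadjusted p under 0.05, against 4.16% of all genes. The replicates did not overlap for 12 of 20, against 5.16% of all genes. The S members had a median of 0.19, with 11 of 15 higher, 0 of them at an unadjusted p under 0.05 in edgeR and 0 in DESeq2. Cdt1 alone reached an unadjusted p under 0.05, as lower in WT (60.6, 66.1 and 46.7 against 49.9, 28.9 and 29.4, log2 −0.52, SE 0.22, edgeR adjusted p = 0.357). The 11 members under the minimum, with 46 to 93 UMIs each, were Gins2, Cdc6, Cdc45, Ccne1, Ccne2, Cdc20, Aurka, Bub1, Plk1, Ckap2l and Anln. With no count minimum, 26 of 26 G2/M and 16 of 20 S members were higher and 20 of 48 members were called, against 1.07% of all genes.

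Several S members of NK cells varied widely within WT. Rrm2 stood at 12.4, 53.5 and 32.6 in EV and at 73.8, 17.7 and 2.45 in WT. Pclaf stood at 46.5, 138 and 76.2 against 232, 40.2 and 27.0, and Mcm5 at 58.9, 72.7 and 43.6 against 91.1, 33.7 and 27.0. In these 3 genes h3 was the highest of the 6 replicates and h9 the lowest. Without WT h3, 0 of 13 S members tested were higher, with a median of −0.80, and 14 of 15 G2/M members were, with a median of 0.70. Without WT h3, 0 NK members were called, against 6 of all 6614 genes tested, and without EV h1 0 were, against 0 of 6693. In these fits 17 members, of which 9 were S members lower in WT, and 11 members had an unadjusted p under 0.05 in edgeR. No share of all genes was taken there, so these counts cannot be read as a result about the members. In the main fit 12.5% of all genes had such a p, in either direction. Without EV h7, 12 members were called, against 81 of all 6720 genes tested. Called were 4 without EV h8 (10 of 6603 genes), 4 without WT h5 (6 of 7125) and 6 without WT h9 (25 of 7174). DESeq2 called 0 of the 37 members, against 1.32% of all genes. In DESeq2 13 members had an unadjusted p under 0.05, for which no share of all genes was taken. T cell markers in NK cells stood at 148 to 177 summed CPM in EV, with 5 or 6 of 7 detected, and 112 to 118 in WT, with 4 to 6 of 7, and their part was not tested.

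**Figure D5:**
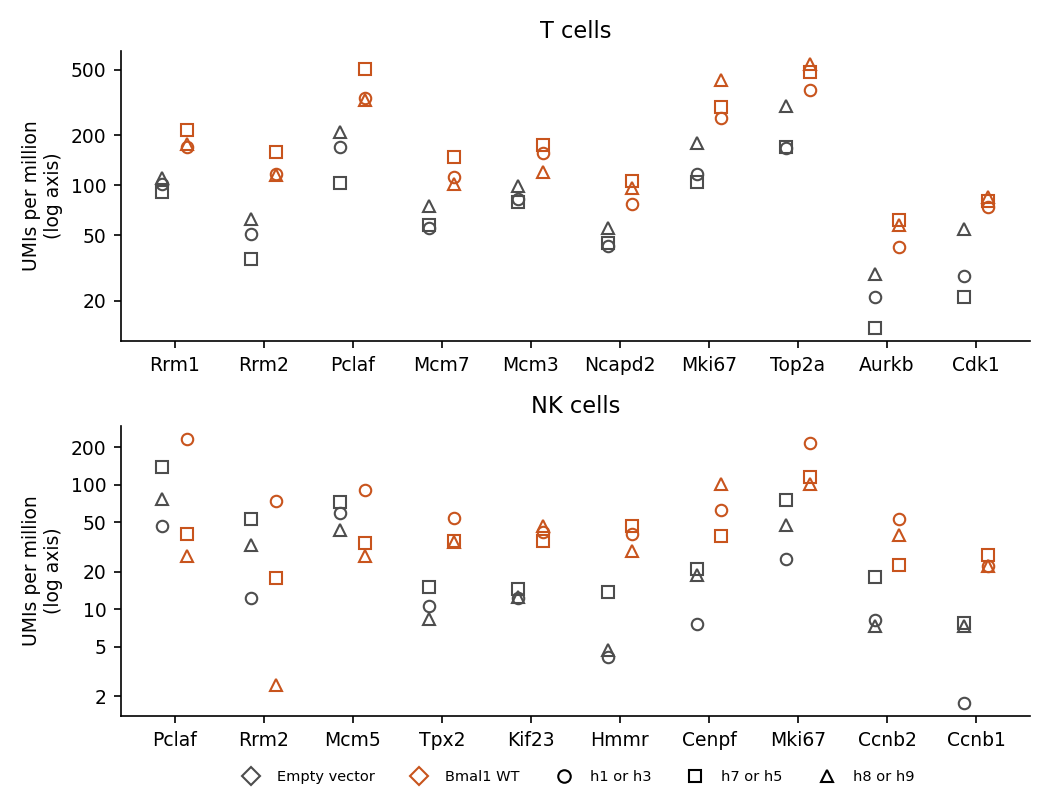
CPM (log axis) of 10 members in each hashtag replicate of T cells (upper panel) and NK cells (lower panel). Grey is EV and orange WT, and shapes name the hashtags without pairing them. In T cells the WT points lie above the EV points for all 10 genes. In NK cells the 7 genes from Tpx2 to Ccnb1 are separate and Pclaf, Rrm2 and Mcm5 are not, with WT h3 (circle) far above h5 and h9.

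In melanoma-like cells the S members had higher fitted levels in WT, the G2/M members stood on both sides of 0, and no member passed the test. Called were 0 of the 42 members that reached the minimum, against 0% of all genes tested. DESeq2 also called 0 members, against 4 of 8321 genes. In DESeq2 13 members had an unadjusted p under 0.05, a level at which no share of all genes was taken for DESeq2. With no minimum count 1 of 48 was called, against 0.203% of all genes. All 15 S members tested had a higher fitted level in WT, with a median log2 fold change of 1.43. Of these, 11 had an unadjusted edgeR p under 0.05, against 1.93% of all genes, and 3 (Mcm4, Mcm7 and Uhrf1) did not overlap between groups, against 5.54%. The G2/M members had a median of −0.02, with 12 of 25 higher and 0 at an unadjusted p under 0.05 in edgeR (1 in DESeq2, under which 18 of 25 were higher). The medians rested on replicates with few cells: without EV h8 the G2/M median was 2.33 (22 of 22 higher), without WT h3 it was −0.54 (4 of 24 higher) and without EV h1 −0.57 (6 of 25 higher), while the S median ran from 1.08 to 1.84 over the 6 replicates left out in turn. Without the cells of the highest 5% of Scrublet doublet scores the S median was 0.63, with 10 of 12 higher.

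The helicase subunit Mcm4 (chr16:15623897-15637400) had the largest S difference in melanoma-like cells. It stood at 4.67, 0 and 4.21 CPM in EV and 20.2, 12.3 and 28.3 in WT (log2 2.19, SE 0.52, edgeR adjusted p = 0.985). Uhrf1 (chr17:56303321-56323486) was at 5.25, 14.5 and 13.8 against 37.0, 19.96 and 60.3 (1.97, SE 0.56, edgeR adjusted p = 0.985). Fen1, the flap endonuclease of Okazaki fragments, was at 7.01, 14.5 and 9.62 against 37.9, 13.5 and 33.5, and Pclaf at 23.9, 87.0 and 39.7 against 213, 54.6 and 124. In EV h7 each UMI is worth 14.5 CPM, so values there are 0 or a few UMIs, and WT h5 was the lowest WT replicate for each of these genes.

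EV h8 was the highest EV replicate for 23 of the 25 G2/M members tested in melanoma-like cells, Ccna2 and Ncapd2 being the exceptions, and it exceeded at least 2 of the 3 WT replicates for 24, all but Aurkb. Mki67 stood at 10.5, 0 and 102 in EV and 147, 43.0 and 78.9 in WT. Cdk1 was at 21.6, 43.5 and 123 against 175, 59.9 and 81.2, and Plk1 at 1.75, 0 and 39.1 against 21.9, 10.1 and 11.2. Top2a had the greatest number of UMIs among the G2/M members (51.4, 58.0 and 200 against 495, 115 and 159, log2 1.15, SE 0.65, edgeR adjusted p = 0.985). No hashtag was found on 54.0% of EV and 63.8% of WT melanoma-like cells deep enough to be thinned. The share of cells called cycling was 18.4% with 1 hashtag and 18.0% with none in EV, and 18.7% and 21.4% in WT. Under 1% of UMIs were mitochondrial in 38.9% of EV and 32.5% of WT melanoma-like cells, and in those cells, split off after the values were seen, the cycling share was 12.8% and 28.2%, against 20.3% and 17.0% in the rest. NK markers summed to 29.2 to 114 CPM in EV and 34.4 to 119 in WT melanoma-like cells, with 1 to 5 of 7 detected, and the part of these cells' quality was not tested.

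In dendritic cells most members had higher fitted levels in WT, and none passed the test. Called were 0 of the 30 members that reached the minimum, against 0% of all genes. DESeq2 called 0 members, against 82 of 7073 genes. In DESeq2 1 member had an unadjusted p under 0.05, for which no share of all genes was taken. A higher fitted level was found for 29 of 30, with a median log2 fold change of 0.46 where the median of all genes was −0.11 (−0.01 with the size factors of DESeq2, under which 30 of 30 were higher). Mki67 was the 1 member with an unadjusted p under 0.05 (4.04% of all genes), and Tubb4b the 1 member whose replicates did not overlap (6.07% of all genes). Mki67 stood at 20.5, 44.7 and 3.34 in EV and 35.9, 98.9 and 92.2 in WT (log2 1.71, SE 0.62, edgeR adjusted p = 0.252). The G2/M median was 0.78 (14 of 14 higher) and the S median 0.31 (13 of 14). EV h8 was the lowest replicate for Top2a (48.9, 113 and 5.34 against 35.2, 151 and 181), Pclaf (59.7, 150 and 8.68 against 51.2, 180 and 147) and Rrm2 (15.7, 56.5 and 0 against 11.96, 46.1 and 37.4). Without EV h8, 6 of 14 S and 10 of 13 G2/M members were higher, with medians of −0.03 and 0.42. The 18 members under the minimum had 29 to 92 UMIs each, and with no minimum 45 of 48 were higher and 2 of 48 were called, where 2.72% of all genes were. T cell markers in dendritic cells ran from 3.14 to 52.5 summed CPM in EV, with 3 to 7 of 7 detected, and from 0 to 4.65 in WT, with 0 to 4 of 7, and their part was not tested.

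The regulators that act on these genes were read from a list of 41 genes of other roles (D-type cyclins and their kinases, CDK inhibitors, retinoblastoma proteins, E2F factors, G2/M transcription factors, regulators of CDK phosphorylation and degradation, and p53 targets). None of the 32, 35, 29 and 26 tested in melanoma-like, T, NK and dendritic cells passed the adjusted threshold in edgeR, and 6, 16, 3 and 3 had an unadjusted p under 0.05, where 4.59%, 20.2%, 12.5% and 15.1% of all genes did. DESeq2 called 0, 2, 0 and 1 of them, where it called 4 of 8321, 189 of 7890, 96 of 7284 and 82 of 7073 genes in that order. In T cells the replication inhibitor geminin, Gmnn, was at 38.9, 33.0 and 55.4 in EV and 73.4, 112 and 77.6 in WT (log2 1.02, edgeR adjusted p = 0.0645). Foxm1, a transcription factor of G2/M genes, was at 9.82, 9.15 and 17.6 against 25.8, 25.4 and 45.5, and the antiproliferative gene Btg2 at 680, 834 and 545 against 450, 316 and 467 (−0.74, edgeR adjusted p = 0.071). For the first 2 all WT replicates were above EV, and for Btg2 all were below, as for 16.5% of all genes.

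D-type cyclins, which carry cells through G1, had lower fitted levels in WT in 10 of 12 pairs of gene and class. Of all genes tested, 4240 of 8321 in melanoma-like and 4760 of 7890 in T cells were lower. In NK cells 4580 of 7284 were, and in dendritic cells 4561 of 7073. The pairs share replicates and are not independent. The exceptions among the 12 pairs were Ccnd1 and Ccnd3 in NK cells (log2 0.25 and 0.032). Ccnd1 in melanoma-like cells was at 2929, 3785 and 2577 in EV and 1942, 2219 and 1329 in WT (log2 −0.75, edgeR adjusted p = 0.985). In dendritic cells it was at 307, 298 and 203 against 135, 136 and 180 (−0.85, edgeR adjusted p = 0.123). Ccnd2 in NK cells was at 580, 566 and 573 against 462, 421 and 380 (−0.43, edgeR adjusted p = 0.140), and in melanoma-like cells at 772, 1595 and 398 against 218, 465 and 119 (−1.70, edgeR adjusted p = 0.985). Groups did not overlap for Ccnd1 in either class or for Ccnd2 in NK cells, which was also the case, as lower in WT, for 5.56% of all genes in melanoma-like, 15.6% in dendritic and 13.1% in NK cells, and none of these values passed the adjusted threshold.

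Some members share their position with other genes in GENCODE M21 (GRCm38). A coding gene on the other strand overlaps 12 members, among them Pclaf (Trip4), Mcm7 (Ap4m1 and Cops6), Ccna2 (Exosc9) and Ube2c (Tnnc2), and the coding gene Gm20388 on the same strand overlaps Cdt1. No source used here states the use of strand in counting, so the values of these members are uncertain to that extent. Rrm2, Rrm1, Tpx2, Kif23, Hmmr, Cenpf, Mki67, Ccnb1 and Ccnb2 overlap no coding gene.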

How the data were processed

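Cells were captured with 10x Genomics 3′ chemistry (v3.1) and hashtag antibodies. The authors deposited raw UMI counts per gene and barcode, made with Cell Ranger 6.1.2 (matrix header) on mm10 (submitters' processing notes). The counts are not normalized. No source used here gives the aligner settings. The files deposited for Bmal1 bHLH were copies of those for Bmal1 WT, and a bHLH library was not analysed here.

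Barcodes with at least 200 genes and at most 20% mitochondrial UMIs were kept. Hashtags were called with minimum counts of 17 to 159 from a mixture model. The libraries shared 5 barcodes. Cells with several hashtags (368 EV and 105 WT) did not enter replicates but stayed in shares over all cells. Other doublets were kept: Scrublet called 1 EV and 4 WT cells and so did not work. A cell entered the class with most marker UMIs if it had at least 3 UMIs, from at least 2 markers, and 2 times those of every other class.

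Shares were compared by exact permutation tests over replicates (two-sided). UMIs summed per replicate, for genes with at least 100 UMIs, were tested with edgeR 4.0.16 (R 4.3.3, quasi-likelihood, total-UMI scaling, Benjamini-Hochberg at 0.05). The SE of a log2 fold change is its size over the square root of F. Both steps were run on simulated data. The edgeR simulation drew genes independently with a common dispersion, so it does not cover replicates in which many members move together. Phase balances used a pseudocount of 0.5. Named genes were 15 fixed members, those with an unadjusted p under 0.05 (at most 12 per class), the member of each role with the most UMIs and at most 6 regulators. Further genes (among them Rrm1 levels by class, Anln, Cdc6, Cdc45 and the overlapping genes) were named after their values were seen. The members and lists were chosen with earlier results of these data known. Alternatives were TMM, DESeq2 1.42.0, other filters, gates, hashtag calls, thinning depths and call thresholds, clusters made in scanpy 1.11.5 and each replicate left out.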

Additional observations from a re-analysis of the deposited data

How the results depend on the processing

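The alternatives were other thinning depths, call thresholds, filters, gates, hashtag calls and scalings, and each replicate left out. The limits of these data are 1 channel per group, 3 hashtags per channel, few melanoma-like cells with a hashtag, a greater depth in WT than in EV, and doublets that Scrublet did not resolve. The cause of the changes given here was not tested. No paired analysis was possible because EV and WT share no hashtag or replicate number.

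Differences in cycling share are in percentage points. With thinning to 1000 UMIs, WT minus EV was −8.28 in melanoma-like cells, melanoma-like minus T was 4.63, melanoma-like minus NK 13.2 and NK minus dendritic −3.23. With thinning to 4000 UMIs, WT minus EV was −1.86 in NK cells, melanoma-like minus T −30.04, melanoma-like minus NK −18.2, melanoma-like minus dendritic −4.22, T minus NK 11.8 and T minus dendritic 25.8. Without thinning, melanoma-like minus T was 22.7, melanoma-like minus NK 28.5, melanoma-like minus dendritic 18.4, T minus NK 5.77, T minus dendritic −4.33 and NK minus dendritic −10.1, and WT minus EV was 14.5 in T and 1.31 in dendritic cells. With a call at 2 distinct members, WT minus EV was −4.99 in melanoma-like and −1.10 in NK cells, melanoma-like minus T −18.6, melanoma-like minus dendritic −1.68 and T minus dendritic 16.9. With a call at 5, melanoma-like minus NK was 5.80 and NK minus dendritic −5.05. With a stricter gate, melanoma-like minus T was −13.2 and melanoma-like minus dendritic −3.17. With clusters made without the members, WT minus EV was −2.52 in melanoma-like cells, melanoma-like minus NK 8.97 and NK minus dendritic −1.54. Melanoma-like minus dendritic was −1.76 without the highest 5% of Scrublet scores. Melanoma-like minus NK was 0.455 with hashtags by centred log count, 2.73 over replicates with at least 10 cells and 0.696 without cells under 1% mitochondrial UMIs, an alternative added after the data were seen.

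The WT minus EV balance of S to G2/M UMIs (log2) in melanoma-like cells was −0.010 with the stricter cell filter, −0.31 with the stricter gate, −0.21 with clusters made without the members and −0.39 with hashtags by centred log count.

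Counts in brackets are genes called of all genes tested at the same setting. The members called in T cells were 9 with TMM (87 of 7890), 18 with DESeq2 (189 of 7890) and 35 with no minimum count (662 of 15904). They were 1 with the stricter gate (6 of 7650) and 9 without the highest Scrublet scores (81 of 7785). In NK cells they were 0 with DESeq2 (96 of 7284), 20 with no minimum count (161 of 15038) and 4 with no cell filter (9 of 7294). They were 3 both without the highest Scrublet scores (7 of 7203) and with centred log hashtags (12 of 7617). With no minimum count, 1 melanoma-like (33 of 16253) and 2 dendritic members (413 of 15158) were called.

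Log2 fold changes turned sign in melanoma-like cells without the highest Scrublet scores for Ube2c (−0.55), Ccna2 (−0.54), Stmn1 (−0.071), Ccnb1 (−0.19) and Racgap1 (−0.10), and with centred log hashtags for Plk1 (0.013). In NK cells DESeq2 gave −0.071 for Mcm5. Pcna in NK cells was −0.011 with no cell filter, −0.0049 with the stricter cell filter, −0.024 without the highest Scrublet scores, −0.032 with centred log hashtags and −0.0024 without cells under 1% mitochondrial UMIs.

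With each replicate left out in turn, the WT minus EV cycling share ran from 1.11 to 15.4 in melanoma-like, 2.06 to 13.2 in T, −2.07 to 4.73 in NK and 6.69 to 12.01 in dendritic cells. The balance ran from −0.83 to 0.55, −0.49 to 0.036, −1.53 to −1.12 and −0.80 to −0.25 in that order. T minus NK ran from 5.68 to 10.3, T minus dendritic from 7.65 to 14.1, NK minus dendritic from −0.686 to 3.82, melanoma-like minus T from −13.01 to −6.19, melanoma-like minus NK from −2.78 to 2.73 and melanoma-like minus dendritic from −3.47 to 4.23. With 5 replicates the smallest exact permutation p is 0.0625, so T minus NK could not pass. Members called ran from 0 to 25 in T, 0 to 12 in NK, and 0 to 0 in melanoma-like and dendritic cells. Of all genes tested, 0 to 180 were called in T, 0 to 81 in NK, 0 to 2 in melanoma-like and 0 in dendritic cells. In melanoma-like cells the fold change of Birc5 ran from −0.12 to 2.88, Ccna2 from −0.34 to 1.43, Ccnb1 from −0.46 to 3.19, Racgap1 from −0.32 to 2.54, Stmn1 from −0.26 to 1.90 and Ube2c from −0.36 to 1.58. In NK cells Cdk1 ran from −0.30 to 1.32, Mcm5 from −0.91 to 0.31, Mcm6 from −0.44 to 0.049, Pclaf from −1.31 to 1.001, Pcna from −0.29 to 0.13, Rrm1 from −0.62 to 0.57, Rrm2 from −1.50 to 0.91 and Stmn1 from −0.10 to 0.98. In dendritic cells Mcm6 ran from −0.11 to 0.62, Pcna from −0.17 to 0.57 and Rrm2 from −0.23 to 1.87. Of 919 values of named genes under settings that left out no replicate, 821 kept their direction and their side of the threshold.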
